A study of Mus musculus with 3 samples.

Results

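The immunity-related GTPases (IRGs) were followed in RAW264.7, a mouse macrophage cell line, challenged with lipopolysaccharide (LPS), the bacterial agonist of TLR4. The members were chosen by gene name: Irgm1, Irgm2, Igtp, Iigp1, Tgtp1, Tgtp2, Ifi47 and Gvin1. Of these 8 names, 7 are printed on the array, out of 36870 gene names in all. No probe is named Tgtp1, but the 1 probe named Tgtp2 lists the Tgtp1 transcript too, so its signal can come from either gene. The conditions compared, with 1 array each, were macrophages given LPS for 3 h, and macrophages exposed for 12 h (the time in the labels) to Lactiplantibacillus plantarum LOC1 or LOC3 before the same LPS challenge. The study's methods state a longer contact with the bacteria than the labels, and that the wells were washed before LPS. With 1 array per condition there is no spread between replicates, so no difference between conditions has a test, a p-value or an SD. The array of unchallenged macrophages was not analysed here. Its level enters only through the log2 ratios against it that were deposited for the other arrays.

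IRGs are large GTPases of the mouse that interferon induces in macrophages and many other cells. The effector proteins among them (Iigp1, Tgtp1, Tgtp2 and Ifi47, which carry a GKS motif) load onto the membrane of vacuoles that hold Toxoplasma or Chlamydia and help to break it open. The regulators (Irgm1, Irgm2 and Igtp, which carry a GMS motif) sit on the cell's own membranes and keep the effectors inactive there. Gvin1 belongs to the very large inducible GTPases, a related interferon-induced family.

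All 3 arrays lay on 1 slide. The 75th percentile of the intensities lay between 504 and 544, and 47.8% to 51.9% of 56605 probes were well above background. Among probes printed 10 times on each array, the technical SD of a log2 difference between arrays was 0.06 for bright probes and 0.31 for dim ones, those with a mean at least 1 log2 unit below the 75th percentile, of which only 10 to 12 per array were available. This SD holds the noise between spots and nothing of the variation between cultures. All 9 macrophage markers, among them Lyz2, Csf1r, Cd68, Adgre1 and Itgam, were above background on every array. Their summed intensity ranged from 385555 to 481521. Among 8 markers of other cell types, 3 were not well above background on any array, Ncr1 and Ly6g among them, and 4 were above it on all: Siglech, Cd3e, Col1a1 and Pecam1. Siglech, known from plasmacytoid dendritic cells, read 44973, 34019 and 31442 in the order LPS, LOC1 and LOC3, and the T cell gene Cd3e read 396, 416 and 451. Epcam was above background with LPS only. The summed intensity of those 8 ranged from 31996 to 45536. Their part in the results was not tested.

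The promoters of the members are shown first, because several of them hold the same short arrangement of interferon motifs. Sequences are from RefSeq on the GRCm38.p6 build, 250 bases before the annotated start of each gene. Promoters were found for 6 of the 8 members, all on chromosome 11, and not for Iigp1 or Gvin1. The motifs searched on both strands were the core of the interferon-stimulated response element (ISRE), GAAANNGAAA, which factors activated by type I interferon bind, and the gamma-activated site (GAS), TTCNNNGAA, known from genes that interferon-γ induces. In the lines below, capitals mark the GAS and then the ISRE core.
Igtp: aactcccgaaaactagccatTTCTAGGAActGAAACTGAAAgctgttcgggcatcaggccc
Irgm2: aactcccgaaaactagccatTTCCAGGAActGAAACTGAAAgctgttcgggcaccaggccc
Tgtp1: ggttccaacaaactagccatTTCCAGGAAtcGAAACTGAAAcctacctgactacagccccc
Tgtp2: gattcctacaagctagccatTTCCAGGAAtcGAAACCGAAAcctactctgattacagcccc
Gm12185: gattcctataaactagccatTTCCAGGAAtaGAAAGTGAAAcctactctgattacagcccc

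These stretches lie at chr11:58199491-58199551 on the plus strand for Igtp, chr11:58214882-58214942 on the plus strand for Irgm2, chr11:48992294-48992354 on the minus strand for Tgtp1, chr11:49064253-49064313 on the minus strand for Tgtp2 and chr11:48927228-48927288 on the minus strand for Gm12185, an IRG gene that is no member. In each, the GAS stands 2 bases before the ISRE core, with no overlap. The GAS began 45 bases before the start of Igtp, 75 before that of Irgm2, 88 before Tgtp1 and 81 before Tgtp2. The 21 bases from the GAS to the end of the ISRE were identical at 20 positions between Igtp and Irgm2, at 20 between Tgtp1 and Tgtp2, and at 17 between Igtp and Tgtp2. Of 32851 promoters in the table, 5 held this arrangement (0.0152%), and they are the 5 printed here. The spacing was taken from these sequences after they were read, so the count describes the 5 promoters and tests nothing.

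Irgm1 held a different pattern, a pair of overlapping ISRE cores that began 30 and 24 bases before its start, at chr11:48871421-48871470 on the minus strand.
Irgm1: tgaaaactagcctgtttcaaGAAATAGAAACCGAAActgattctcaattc
In all, 5 of the 6 promoters held an ISRE core, against 978 of the 32851 (2.98%), and 4 of the 6 a GAS, against 2306 (7.02%). Igtp and Irgm2 are alike in sequence, as are Tgtp1 and Tgtp2, so the 6 are not separate instances to set against these shares. Only 0.180% of promoters held more than 1 ISRE core. Neither motif was found in the 250 bases before Ifi47, which says only that these letters are not in that window. Among the other family members, Gm12250, also known as Irgb10, held 2 ISRE cores on the opposite strand with a GAS between them, in another arrangement.

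**Figure D1:**
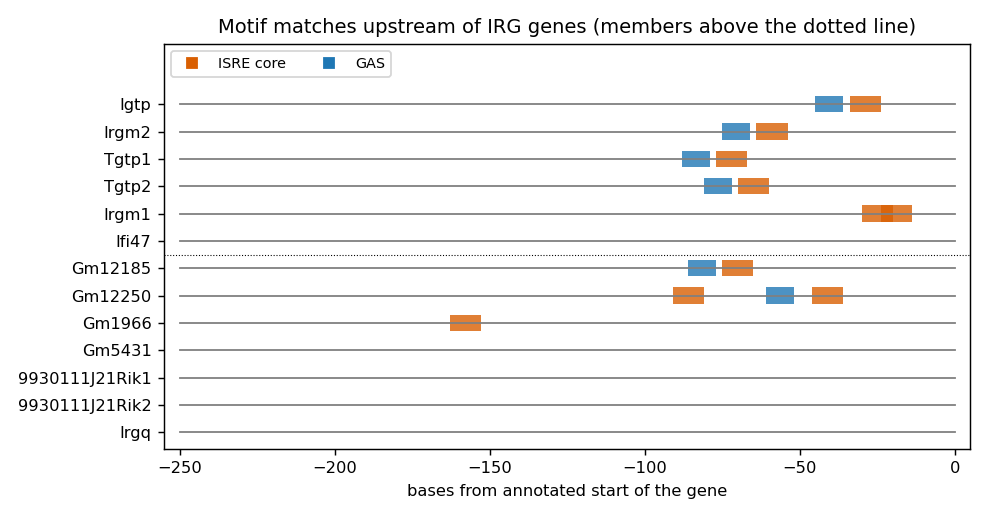
Positions of the ISRE core (orange) and the GAS (blue) in the 250 bases before the annotated start of 13 genes, on either strand. The x axis gives distance from the start in bases. The genes are members and others of the wider family list, with none from chromosome 18. The motif pair sits within 88 bases of the start in Igtp, Irgm2, Tgtp1, Tgtp2 and Gm12185, and Irgm1 has overlapping ISRE cores and no GAS.

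All 7 measured members were listed in the deposited table as higher with LPS than in unchallenged macrophages, with a log2 ratio of the brightest probe from 4.01 for Gvin1 to 10.39 for Iigp1. The members are read by 11 probes, each printed once, and all 11 were well above background on all 3 arrays. Of these, 9 were listed at least 2-fold higher with LPS, and the 2 that were not both target Irgm1. How probes came to be listed is not known, so a blank need not mean a change under 2-fold. Over the whole array, 10.3% of the probes above background with LPS were listed as higher. The signal that a ratio implies for unchallenged cells fell below 16.3, the lowest intensity read as well above background with LPS, for 3 of the 9 probes. For those the fold is a lower bound.

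Iigp1, a membrane-attacking effector on chromosome 18, had the highest listed ratio of the members. Its brightest probe read 4527 with LPS, 10222 with LOC1 and 10859 with LOC3. The deposited log2 ratios against unchallenged cells were 10.39, 11.71 and 11.80. With unchallenged cells below the detection limit, these are at least 277-fold, 693-fold and 734-fold on the scale of the deposited ratios. On that scale the differences from LPS alone were 1.32 with LOC1 and 1.40 with LOC3, slightly above those given next. Relative to LPS alone, the probe was 2.44-fold higher with LOC1 (log2 difference 1.29) and 2.57-fold higher with LOC3 (1.36), and both values exceed the technical SD many times. A second Iigp1 probe, designed to a cDNA clone, was dim, with 54.9, 44.9 and 44.3. Its log2 differences of -0.18 and -0.21 do not exceed the dim probes' technical SD, and its deposited ratio for LPS was 1.56.

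The Tgtp2 probe, which reads the effector pair Tgtp1 and Tgtp2 and maps to chr11:48871837-48871896 on the mm9 build of the array, came next. It read 2175 with LPS, 4012 with LOC1 and 3952 with LOC3. By its deposited ratio of 7.10, LPS-treated cells were at least 133-fold above unchallenged ones, and the ratios with the lactobacilli were 8.13 and 8.10. Compared with LPS alone it was 1.99-fold higher with LOC1 (log2 difference 0.99) and 1.95-fold higher with LOC3 (0.96), just short of the 2-fold threshold. Only 2.53% of genes had a greater difference with LOC1 and 3.20% with LOC3.

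Ifi47, the other effector on chromosome 11 (chr11:48910402-48910461), read 13889 with LPS, 18151 with LOC1 and 20163 with LOC3. Its deposited ratio for LPS was 4.62, or 24.6-fold. It was higher with both lactobacilli than with LPS alone, by 0.50 and 0.64 on the log2 scale.

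Of the regulators, Irgm2 (chr11:58036064-58036123) read 19818 with LPS, 26659 with LOC1 and 26941 with LOC3. Its deposited ratio for LPS was 5.58 (47.8-fold), and its log2 difference from LPS alone was 0.54 with each strain. Igtp, its neighbour on the chromosome and also known as Irgm3 (chr11:58020927-58020986), read 39023, 51765 and 55372. Its ratio for LPS was 4.98 (31.6-fold), and its differences from LPS alone were 0.52 with LOC1 and 0.61 with LOC3. Both regulators were about as far above LPS alone as Ifi47 was.

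Irgm1, the regulator also studied for its part in autophagy and in defence against mycobacteria, differed least of the members. Its brightest probe (chr11:48679069-48679128) read 24616 with LPS, 25674 with LOC1 and 25409 with LOC3, with a deposited ratio for LPS of 4.66 (25.3-fold). The log2 differences from LPS alone were 0.17 and 0.15, inside the quartiles of all genes, which were -0.28 and 0.23 with LOC1 and -0.23 and 0.24 with LOC3. A probe at chr11:48679632-48679691 read 5314, 5573 and 5113, with differences of 0.18 and 0.04, and one at chr11:48679134-48679193 read 13497, 14566 and 13748, with differences of 0.22 and 0.13. These 2 are the probes absent from the deposited list.

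The fourth Irgm1 probe, designed to an alternative transcript at chr11:48675495-48675554, went the other way. Its signal was dim, reading 90.4, 52.8 and 40.7 in the order LPS, LOC1 and LOC3. It was lower than LPS alone by 0.67 on the log2 scale with LOC1 (log2 difference -0.67) and 2.07-fold lower with LOC3 (-1.05), against a technical SD of 0.31 for dim probes. Under normexp background correction the difference was -0.28 with LOC1, smaller in size than that SD, and -0.45 with LOC3, short of 2-fold. Its deposited ratio of 4.72 for LPS means at least 5.54-fold, as the implied unchallenged signal is below the limit.

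Gvin1 on chromosome 7 (chr7:113302432-113302491) read 34485 with LPS, 42115 with LOC1 and 43545 with LOC3. Its deposited ratio for LPS was 4.01 (16.2-fold), the lowest of the members. It was 0.40 and 0.44 higher on the log2 scale with LOC1 and LOC3 than with LPS alone.

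**Figure D2:**
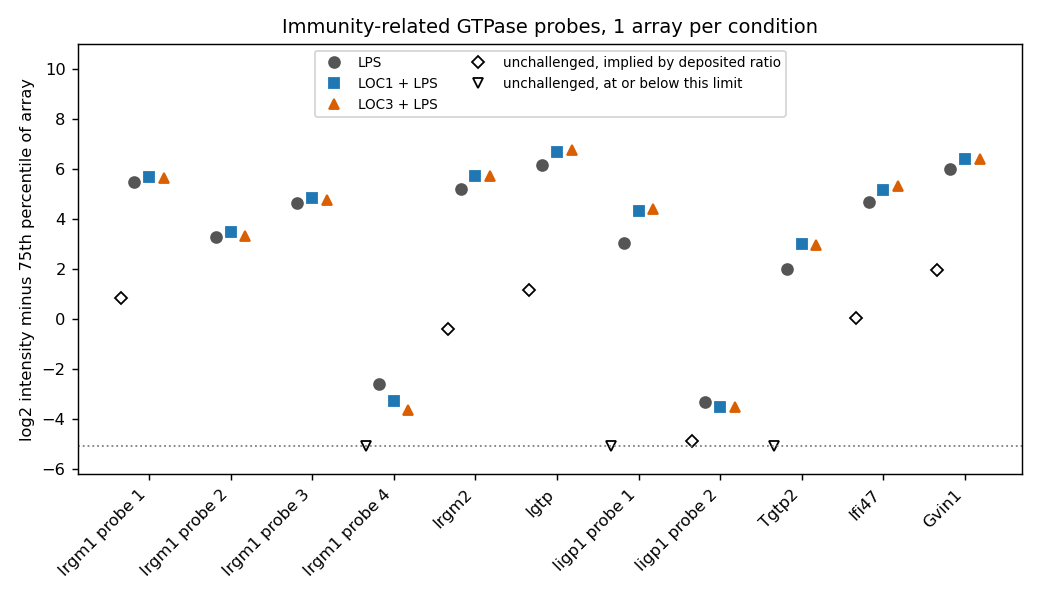
Log2 intensity less the array's 75th percentile for the 11 probes of the 7 measured members, with 1 point per array, and the unchallenged level implied by the deposited ratio (open diamonds) or its upper limit (open triangles, dotted line). Irgm1 probe 4 and Iigp1 probe 2 are the dim probes, and at the brightest probe of every member the points with LOC1 and LOC3 lie above that with LPS alone.

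Set side by side, the brightest probe of 7 of 7 members was higher with LOC1 than with LPS alone, and likewise with LOC3, except that Irgm1 gave -0.02 and -0.18 where its probes were averaged. For LOC1 the log2 differences had a median of 0.52 (1.43-fold) and lay between 0.17 and 1.29. For LOC3 the median was 0.61 (1.52-fold), with values between 0.15 and 1.36. All genes had medians of -0.00 over 20019 genes and 0.03 over 19790, and 49.9% and 53.7% of them lay above 0. Only Iigp1 passed 2-fold, with either strain, and no member was 2-fold lower. With its 2 probes averaged Iigp1 was at 0.55 and 0.58, and under median scaling Tgtp2 was past 2-fold as well, at 1.21 and 1.15. Of all genes, 2.48% were at least 2-fold higher with LOC1 and 3.83% lower, and 2.96% were higher with LOC3 and 3.22% lower. Both comparisons use the same LPS array, so an error in that array would move both.

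**Figure D3:**
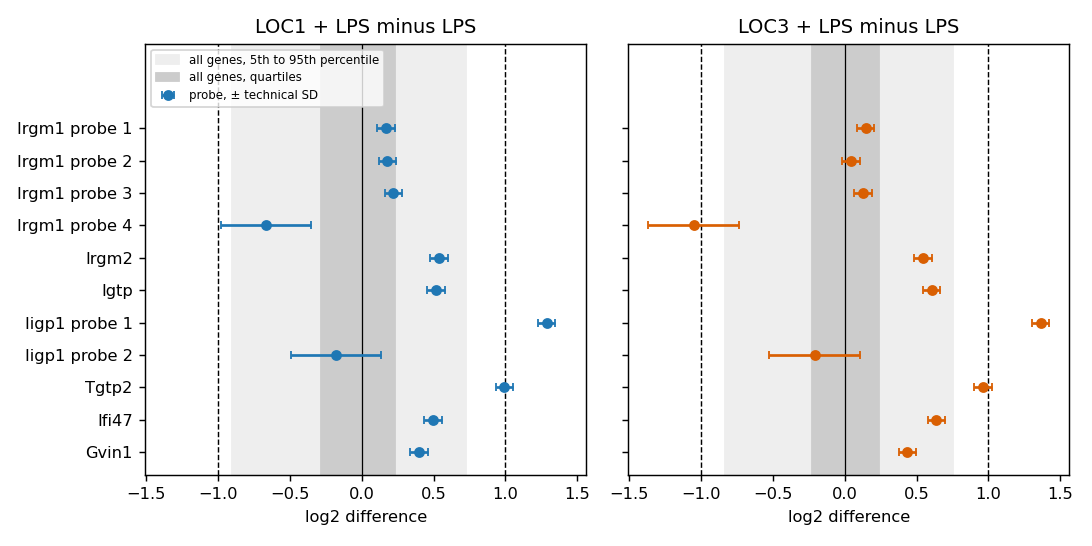
Log2 difference of each member probe from LPS alone, with LOC1 on the left and LOC3 on the right, bars of 1 technical SD between spots, grey bands for all genes and dashed lines at 2-fold. Iigp1 probe 1 lies beyond 2-fold with both strains (1.29 and 1.36), Tgtp2 just inside it, and Irgm1 probe 4 on the low side (-0.67 and -1.05).

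Between the strains the gaps were small. LOC1 less LOC3 was between -0.14 and 0.03 on the log2 scale for the 7 members, with a median of -0.04 against -0.01 over 19382 genes. No member passed 2-fold, where 0.8% of all genes were higher with LOC1 and 1.83% higher with LOC3. For Ifi47 the gap was -0.14, more than 2 technical SDs of bright probes, but -0.11 under both median scaling and quantile normalization, which is less.

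The further family genes lay closer to LPS alone by their median, with genes on both sides. Their list mixes IRGs with genes near Gvin1 on chromosome 7, Gm1966, Gm8995 and Gm17757. Of 21 further names, 14 are on the array and 13 were above background with LPS. On the log2 scale their medians were 0.10 for LOC1 and 0.19 for LOC3 relative to LPS alone, none was 2-fold higher, and 9 of 13 and 10 of 13 lay above 0. A probe of 10 of them was listed as higher with LPS than in unchallenged cells. Gm4951, a neighbour of Iigp1 on chromosome 18, came closest to the effectors, with 1974, 3246 and 3637, log2 differences of 0.83 and 0.98, and at least 121-fold with LPS. In contrast, Gm4841 from the same chromosome read 4191, 2507 and 2574 at its brightest probe (-0.63 and -0.60), while its other, dimmer probe gave 0.86 and 1.11. F830016B08Rik was also below LPS alone, with 2916, 2004 and 1873 (-0.43 and -0.54).

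Gm12250 (Irgb10), an effector that acts against bacterial membranes, read 388 with LPS, 370 with LOC1 and 396 with LOC3. Its differences were 0.04 and 0.13, and its deposited ratio for LPS was 4.56 (23.6-fold). A second, dimmer probe read 96.2, 120 and 114, with differences of 0.42 and 0.35. Gm12185, whose promoter is printed with those of the members, was dim, at 22.0, 27.6 and 28.1, with differences of 0.44 and 0.46. Irgc1, an IRG-like gene known from the testis, was the 1 family gene past 2-fold. Its intensity was 128 on the LPS array, and those on the LOC1 array (3.43) and the LOC3 array (4.59) did not rise well above background, which makes it at least 8.16-fold and 6.02-fold lower.

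**Figure D4:**
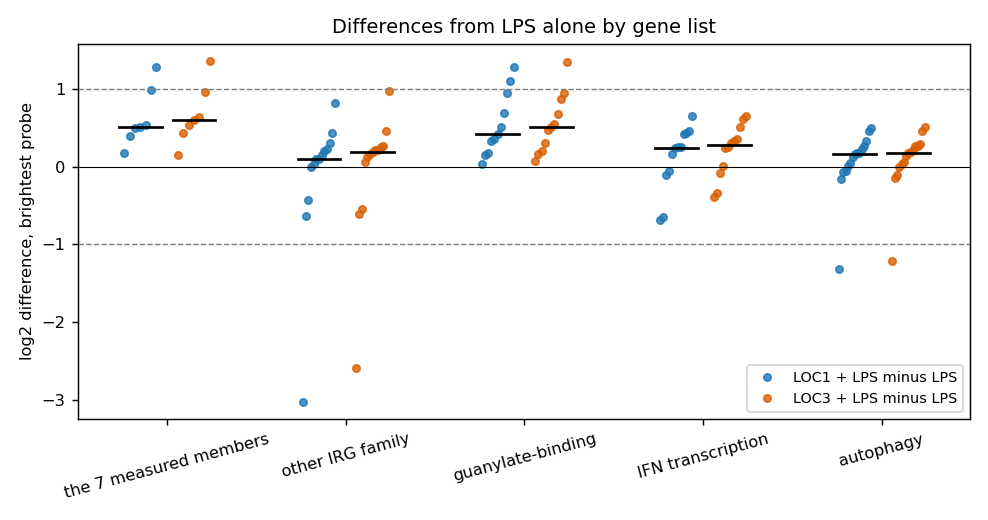
Log2 difference of each gene's brightest probe from LPS alone, in blue for LOC1 and orange for LOC3, by gene list, with the median as a black line and dashed lines at 2-fold. The medians are 0.52 and 0.61 for the 7 members, and 0.43 and 0.51 for the guanylate-binding proteins. Those of the further family genes (0.10 and 0.19) lie below both, and the lowest point is Irgc1, a bound.

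The guanylate-binding proteins (GBPs), which are recruited to the same vacuoles as the effectors, were higher than LPS alone in 11 of 11 genes with either strain. Their medians were 0.43 with LOC1 and 0.51 with LOC3, and a probe of all 11 was listed as higher with LPS. Gbp11 had the greatest difference, with 842, 1901 and 2004 (1.28 and 1.35), and Gbp2 the smallest, with 34066, 32423 and 33499 (0.04 and 0.08). Gbp8 also passed 2-fold with LOC1, at 1.10, and reached 0.95 with LOC3.

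The ligand and receptor genes upstream of the IRGs lay on both sides of LPS alone. Ifnb1, which encodes interferon-β, read 1251 with LPS, 29911 with LOC1 and 18123 with LOC3, or 25.8-fold and 15.5-fold above LPS alone. It was the only gene of the 8 compared in that list to pass 2-fold. Ifng, which encodes the classical inducer of the IRGs, was not well above background on any array (3.26, 2.91 and 3.89). Ifnar1, a chain of the receptor for type I interferon, was below LPS alone, by -0.66 and -0.75, as were the interferon-γ receptor chains Ifngr1 (-0.34 and -0.41) and Ifngr2 (-0.55 and -0.34). The partner chain Ifnar2 (0.19 and 0.17) and the receptor kinases Jak1 (0.26 and 0.32) and Jak2 (0.32 and 0.30) were above it, and Tyk2 was at -0.27 and -0.08.

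Of 13 interferon transcription factors and regulators, 12 were compared and none passed 2-fold with either strain. Their medians were 0.24 and 0.28. A probe of 10 of them was listed as higher with LPS, among them Irf1 with a deposited log2 ratio of 3.24 and Batf2 with 4.72. Batf2 stood farthest above LPS alone, at 0.65 and 0.66, and Irf1 was at 0.44 and 0.36. Irf8 (-0.68 and -0.39) and the feedback inhibitor Socs1 (-0.64 and -0.34) were below it.

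Other genes of autophagy and of the vacuole were read as 2 lists. The first holds 15 autophagy genes, most of them of the ATG8 conjugation system, which helps to direct IRGs to foreign membranes, with the upstream genes Ulk1, Becn1, Atg14 and Atg9a besides. They had medians of 0.17 with LOC1 and 0.17 with LOC3, and 0 of them were listed for LPS. Absence from the list need not mean that a gene did not change. The 1 gene past 2-fold was one of the upstream genes, the lipid scramblase gene Atg9a, at 330, 122 and 133 (-1.32 and -1.22). The second list mixes 13 genes, among them autophagy receptors, galectins, ubiquitin enzymes such as Traf6, Trim21 and Uba6, and the NADPH oxidase subunits Cyba and Cybb. Its values had medians of 0.18 and 0.19, with none past 2-fold. Of these, the autophagy receptor Sqstm1 (0.64 and 0.60) and the damage sensor Lgals8 (0.67 and 0.60) stood highest. The 5 control genes Actb, Gapdh, Tbp, Hprt and B2m lay between -0.02 and 0.27 with LOC1 and between 0.05 and 0.30 with LOC3. The differences of the brightest Irgm1 probe fall inside their range, but those of its alternative transcript do not.

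By the pair of differences from LPS alone, the genes nearest to the members' medians of 0.52 and 0.61 were Gorab, Sh3glb1, Zbtb8a, 2210408I21Rik and Rel. Rel, a subunit of NF-κB, read 12231 with LPS, 16155 with LOC1 and 17504 with LOC3 (0.51 and 0.62). Of 17398 genes searched, 248 lay within 0.1 of the members' medians. The likeness rests on 2 differences from 3 arrays and says nothing of shared control.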

How the data were processed

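RNA was hybridised to one-colour Agilent mouse arrays, 1 array per condition. The intensities (gProcessedSignal) were background-subtracted by the authors with Feature Extraction 12.0.3.1, per the file headers, which give probe positions on mm9. The authors also deposited log2 ratios against unchallenged macrophages, with no listed value under 2-fold. A blank need not mean a change under 2-fold. For LPS, Irf7 was blank at its brightest probe and listed at 7.03 at another. Differences between the deposited columns equal the scanner differences plus a constant of 0.15 (LOC1) or 0.14 (LOC3), which settles scale and direction. The exceptions past 0.001 were 2 of 5507 probes for LOC1 and 2 of 5533 for LOC3. The methods state a 2-fold change and a t-test for selecting genes; with 1 array per condition, how the listed probes were chosen could not be rebuilt.

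Here, log2 intensities less the array's 75th percentile over non-control spots were compared, without 135, 118 and 133 outlier spots. The brightest probe stood for a gene and had to be well above background on 1 of the 2 arrays. Dimmer signals were raised to the lowest detected intensity (16.3, 14.5 and 19.8). Genes were counted at 2-fold with no test. The steps were checked on simulated arrays, with Python 3.11.15, pandas 2.3.3 and limma 3.58.1 (normexp). The members and lists were chosen with earlier results of these data known. Named were all members, list genes past 2-fold in the wider family and interferon regulators, Ifnb1, the outermost GBPs and the 5 nearest patterns. Other genes were named after their values were seen. Intensities of different probes are not compared. Some genes of the lists are counted but not reported by name here.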

Additional observations from a re-analysis of the deposited data

How the results depend on the processing

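With 1 array per condition, the settings below show only how the same arrays read under other processing. The count of members at least 2-fold above LPS alone was 1 with each strain. It became 2 and 2 under median scaling and from the deposited log2 ratios, where Tgtp2 crossed the threshold, 0 and 0 under the mean of detected probes, where the dim Iigp1 probe enters, and 0 and 0 at 3-fold. At 1.5-fold it was 2 with LOC1 and 4 with LOC3. The shares of all genes at these other thresholds and settings are not given here, so the counts cannot be set against them. With the percentile taken over probes, a setting chosen after seeing the data, it was 2 with LOC1. The median over members was 0.74 with LOC1 and 0.80 with LOC3 under median scaling, which moves the median of all genes to 0.22 with either strain, and 0.44 and 0.47 under quantile normalization. Less the median of all genes, it stayed between 0.42 and 0.56 with LOC1 and between 0.43 and 0.58 with LOC3 in all settings that give both. The remaining settings left the counts as they were. Irgm1 turned to -0.02 and -0.18 under the mean of detected probes, where its alternative transcript enters. Of 258 values for single genes and probes, 37 moved by more than the technical SD. No paired analysis was possible because each group holds 1 array. Depth is not defined for arrays, and their number limits the precision.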
